A study of Mus musculus with 12 samples.

Results

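The 36 genes described here supply amino acids to the cell or are known targets of the transcription factor ATF4. They were taken by name from the probe annotation of the arrays, and comprise 6 stress factors, 11 enzymes of serine, one-carbon, asparagine and proline synthesis, 7 amino acid transporters and 12 tRNA synthetases. All 36 were on the array, out of 27597 gene names, and each was followed through the probe with the highest mean over the arrays. All 36 also passed the filter on dim probes, which left 17912 genes for testing. The kept probe was well above background on all 12 arrays for 34 members, on 11 for Pycr1, which it missed on 1 of the 3 Treg arrays, and on 3 for Slc7a11.

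Naive CD4+CD62L+ T cells of C57BL/6 mice, isolated from spleen and lymph nodes, were activated through CD3 and CD28 and cultured for 5 days, with fresh medium at day 3. The 4 culture conditions were profiled on 3 arrays each. Th9 stimulated cells were Th9 cultures that received 1 µg/ml anti-CD3 for 6 h at the end. Th9 cultures contained an IFN-γ-blocking antibody, IL-4 at 20 ng/ml and TGF-β at 2 ng/ml. Th2 cultures contained IL-4 and the same blocking antibody, without TGF-β. Treg cultures contained TGF-β and an antibody against IL-4, and received IL-2 at day 3. The cells were bulk cultures that were not sorted for a lineage marker after differentiation, as far as the labels say, so fewer cells of a type and less RNA per cell cannot be told apart in any result below. Whether the 3 arrays of a group are independent cultures is not stated, so a p-value reflects the spread among these arrays and nothing beyond it.

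ATF4 is a bZIP transcription factor whose mRNA is translated when the initiation factor eIF2α is phosphorylated, a state known as the integrated stress response and triggered among others by uncharged tRNA. It binds amino acid response elements, often as a dimer with a C/EBP protein, and switches on amino acid transporters, asparagine, serine and proline synthesis, and tRNA charging. Activated T cells draw heavily on imported leucine, glutamine, alanine and serine, and serine feeds the folate-bound one-carbon units used for nucleotide synthesis. One-carbon metabolism runs in parallel in the cytosol (SHMT1, MTHFD1) and in mitochondria (SHMT2, MTHFD2, MTHFD1L).

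Each level below is the log2 processed signal of a probe minus the array's 75th percentile, so that 0 is the 75th percentile. Levels of different probes were not compared with each other. Between 59.8% and 63.7% of probes were well above background per array, no probe was saturated, and arrays of 1 group correlated at 0.988 to 0.995. T cell markers were well above background on all arrays. Il9 was highest on the Th9 stimulated arrays (4.87 to 6.11, against -2.43 to -1.18 in Th9 and -8.18 to -7.51 in Th2 and Treg), and Foxp3 was highest in Treg (0.43 to 0.78), as labelled. The arrays lay on 3 slides. Th2 arrays 1 to 3 shared a slide with Treg array 1, Treg arrays 2 and 3 shared one with Th9 stimulated arrays 1 and 2, and Th9 stimulated array 3 shared one with Th9 arrays 1 to 3. No slide held Th9 together with Th2 or with Treg.

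The amino acid response element was looked for in the promoters first, since it is the feature that links these genes in the literature. RefSeq windows (GRCm38.p6, 250 bases before to 50 bases after each start) were at hand for 29 members, and the letters TGATGNAA were searched on both strands. They occurred in 12 of the 29 members (41.4%), compared with 1219 of 27025 genes with a window (4.51%). As the members were listed as ATF4 targets, this share describes the list. The motif was present in 3 of 6 stress factors (Atf3, Trib3, Chac1), 2 of 11 enzymes (Asns, Pycr1), 2 of 4 transporters (Slc1a4, Slc7a11 with 2 copies) and 5 of 8 tRNA synthetases (Aars with 2 copies, Gars, Iars, Tars, Yars). Windows of 6 of these members are shown with the motif in capitals, together with that of Shmt1, whose window does not contain these letters and which changed most on stimulation.
Chac1: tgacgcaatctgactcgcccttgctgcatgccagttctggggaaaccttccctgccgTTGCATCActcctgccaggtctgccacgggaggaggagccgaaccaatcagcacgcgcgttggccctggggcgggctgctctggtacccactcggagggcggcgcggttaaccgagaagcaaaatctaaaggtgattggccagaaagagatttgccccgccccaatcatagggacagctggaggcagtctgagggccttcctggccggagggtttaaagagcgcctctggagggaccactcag
Asns: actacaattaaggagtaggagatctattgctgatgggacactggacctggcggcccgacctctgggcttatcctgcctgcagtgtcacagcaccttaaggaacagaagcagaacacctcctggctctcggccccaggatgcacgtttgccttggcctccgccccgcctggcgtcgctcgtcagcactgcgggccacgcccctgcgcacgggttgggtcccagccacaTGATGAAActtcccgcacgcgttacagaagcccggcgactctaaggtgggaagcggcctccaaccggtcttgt
Pycr1: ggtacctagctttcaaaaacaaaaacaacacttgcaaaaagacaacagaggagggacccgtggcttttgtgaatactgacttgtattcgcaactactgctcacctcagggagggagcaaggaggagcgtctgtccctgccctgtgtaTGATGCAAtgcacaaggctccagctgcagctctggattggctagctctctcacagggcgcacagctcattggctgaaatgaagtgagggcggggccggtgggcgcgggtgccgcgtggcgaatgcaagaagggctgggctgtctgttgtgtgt
Slc1a4: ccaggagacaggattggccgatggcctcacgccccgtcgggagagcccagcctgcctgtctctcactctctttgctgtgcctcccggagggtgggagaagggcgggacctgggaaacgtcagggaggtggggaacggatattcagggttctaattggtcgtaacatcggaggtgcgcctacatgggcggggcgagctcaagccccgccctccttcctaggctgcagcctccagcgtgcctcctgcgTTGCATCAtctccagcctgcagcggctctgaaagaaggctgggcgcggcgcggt
Aars: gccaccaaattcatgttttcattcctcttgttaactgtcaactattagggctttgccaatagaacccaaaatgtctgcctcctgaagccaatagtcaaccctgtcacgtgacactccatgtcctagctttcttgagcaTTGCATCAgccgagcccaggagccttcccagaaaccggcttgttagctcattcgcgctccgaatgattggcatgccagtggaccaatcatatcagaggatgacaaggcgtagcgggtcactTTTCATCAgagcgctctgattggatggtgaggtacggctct
Tars: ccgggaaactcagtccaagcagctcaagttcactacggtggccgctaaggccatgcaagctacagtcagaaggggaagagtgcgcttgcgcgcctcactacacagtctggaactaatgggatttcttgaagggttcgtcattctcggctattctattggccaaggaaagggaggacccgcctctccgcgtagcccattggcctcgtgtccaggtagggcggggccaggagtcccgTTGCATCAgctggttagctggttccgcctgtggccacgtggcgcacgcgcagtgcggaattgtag
Shmt1: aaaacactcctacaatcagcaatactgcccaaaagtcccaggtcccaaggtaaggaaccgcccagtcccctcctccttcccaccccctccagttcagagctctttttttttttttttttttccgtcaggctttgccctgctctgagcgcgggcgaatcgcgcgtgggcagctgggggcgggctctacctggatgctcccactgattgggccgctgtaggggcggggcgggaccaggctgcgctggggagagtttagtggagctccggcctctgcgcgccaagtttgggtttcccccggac
The windows are chr2:119350992-119351291 (Chac1, plus strand), chr6:7693160-7693459 (Asns, minus strand), chr11:120643699-120643998 (Pycr1, minus strand), chr11:20332664-20332963 (Slc1a4, minus strand), chr8:111033592-111033891 (Aars, plus strand), chr15:11399609-11399908 (Tars, minus strand) and chr11:60811216-60811515 (Shmt1, minus strand), all printed in the direction of transcription. Counted from the start of transcription used for the window, which for Aars lies inside the annotated gene (chr8:111027778-111055569) and for the other 6 at its end, the motif began at base -193 in Chac1, -23 in Asns, -103 in Pycr1, -4 in Slc1a4, -112 and 10 in Aars, and -15 in Tars.

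Across all members the plainest pattern was a low level in Treg cultures. The median difference over the members was 1.46 log2 units for Th9 minus Treg and 1.82 for Th2 minus Treg, next to -0.11 and -0.08 over all genes tested. In Th9 cultures 28 members were higher and 2 lower than in Treg (limma, Benjamini-Hochberg adjusted p under 0.05), where 28.8% of all genes were called higher and 35.3% lower. In Th2 cultures 32 members were higher and 1 lower than in Treg, where 29.3% of all genes were called higher and 33.5% lower. The 2 comparisons share the Treg arrays. With the slide as a block, Th2 is in effect set against Treg array 1 alone. Th9 is then linked to Treg only through the Th9 stimulated arrays, array 3 among them. This limits each slide-block value of these comparisons below. With the slide as a block the counts were 26 higher and 1 lower for Th9 minus Treg and 28 higher and 1 lower for Th2 minus Treg.

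**Figure D1:**
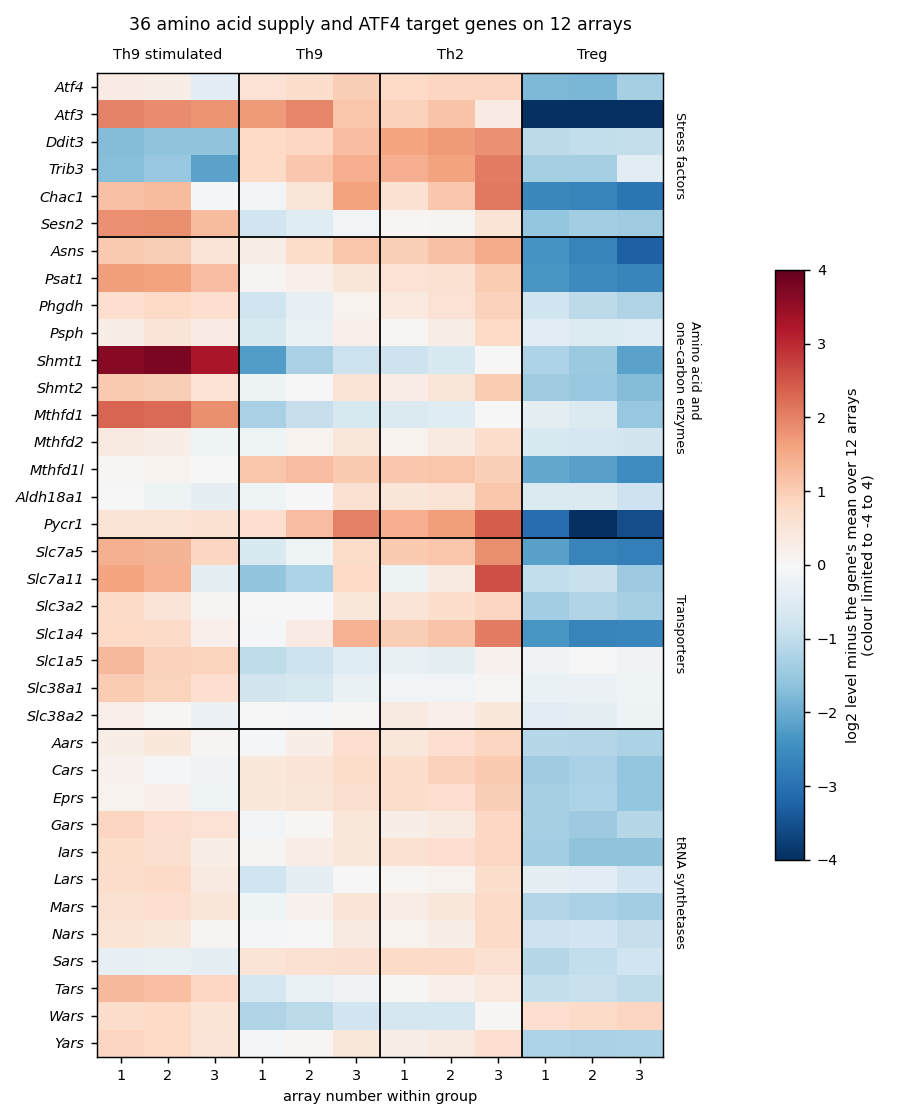
Log2 level of each member (rows, by class) on each of the 12 arrays (columns, by group and array number) minus the gene's mean over the 12 arrays, with the colour limited to -4 to 4. The Treg columns are below the mean for most genes and above it for Wars, and the Th9 stimulated columns stand out for Shmt1, Mthfd1 and Sesn2 above and Ddit3 and Trib3 below.

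All 6 stress factors were higher in both Th9 and Th2 than in Treg. Atf4 itself, the factor of the pathway, had levels of 3.86, 4.0 and 4.28 in Th9 and 4.10, 4.14 and 4.16 in Th2, against 1.49, 1.47 and 1.98 in Treg. This is 2.40 ± 0.21 (SE) for Th9 minus Treg (5.28-fold, adjusted p = 2.77e-06) and 2.49 ± 0.21 for Th2 minus Treg (5.62-fold, adjusted p = 2.18e-06). Atf3, a related bZIP factor induced by stress and by receptor signals, had the widest gap of the 36 for Th9 minus Treg, with 4.21, 4.48 and 3.62 in Th9 and 3.44, 3.67 and 2.84 in Th2, against -2.04, -1.74 and -1.48 in Treg. Neither gene's Th9 or Th2 arrays overlapped the Treg arrays. The difference for Atf3 was 5.86 ± 0.25 for Th9 minus Treg (adjusted p = 2.76e-08) and 5.07 ± 0.25 for Th2 minus Treg (adjusted p = 6.75e-08).

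Chac1 encodes a glutathione-degrading enzyme that is a sensitive ATF4 target. It had 0.03, 0.60 and 1.73 in Th9 and 0.74, 1.22 and 2.23 in Th2, against -2.46, -2.53 and -2.78 in Treg, a difference of 3.38 ± 0.50 for Th9 and 3.99 ± 0.50 for Th2. Array 3 was the highest of its group in both Th9 and Th2. Ddit3 (CHOP, a bZIP factor of prolonged stress), Trib3 (a pseudokinase) and Sesn2 (a leucine-binding brake on mTORC1, 1.53 under the slide block) were higher in Th9 than in Treg by 1.95 ± 0.13, 2.13 ± 0.28 and 1.00 ± 0.21, and in Th2 than in Treg by 2.69 ± 0.13, 2.72 ± 0.28 and 1.71 ± 0.21.

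Of the 11 enzymes, 8 were higher in Th9 than in Treg and 10 in Th2 than in Treg, and none was lower. Pycr1, which makes proline in mitochondria, had -1.75, -1.19 and -0.42 in Th9 and -0.97, -0.77 and -0.02 in Th2, against -5.49, -7.01 and -5.98 in Treg, where it was well above background on 2 of 3 arrays. The measured difference was 5.04 ± 0.41 for Th9 minus Treg (adjusted p = 1.97e-06) and 5.57 ± 0.41 for Th2 minus Treg (adjusted p = 1e-06). With normexp background correction these were 2.31 and 2.77, so the call held while its size depended on how background was treated. Asns, the asparagine synthetase and classical ATF4 target, had 4.83, 5.33 and 5.69 in Th9 and 5.55, 5.75 and 6.08 in Th2, against 2.23, 1.92 and 1.32 in Treg. All Th9 and Th2 arrays of both genes lay above all Treg arrays, and Asns differed by 3.46 ± 0.28 (11.0-fold) in Th9 and by 3.97 ± 0.28 (15.7-fold) in Th2.

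Serine synthesis runs through Phgdh, Psat1 and Psph, and the middle step differed most. Psat1 had 3.94, 4.04 and 4.34 in Th9 and 4.43, 4.46 and 4.86 in Th2, against 1.51, 1.29 and 1.21 in Treg, 2.77 ± 0.17 and 3.25 ± 0.17 higher. Phgdh, the first enzyme, was higher by 0.68 ± 0.21 in Th9 (adjusted p = 0.0169) and 1.65 ± 0.21 in Th2. The Th9 call of Phgdh was lost without Th9 array 3 (0.45, adjusted p = 0.0631), without Treg array 3 (0.59, adjusted p = 0.0566) and under the slide block (0.86, adjusted p = 0.145). Psph, the last enzyme, had 0.27 ± 0.22 in Th9 minus Treg (adjusted p = 0.299), and was higher in Th2 by 0.88 ± 0.22 (adjusted p = 0.00538, but 0.075 under the slide block). Aldh18a1, the first enzyme of proline synthesis, was higher by 0.81 ± 0.22 in Th9 and 1.37 ± 0.22 in Th2, with the Th9 call lost under the slide block (adjusted p = 0.074).

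Among the one-carbon enzymes, the 3 mitochondrial ones exceeded Treg in both Th9 and Th2. Mthfd1l, the mitochondrial formate producer, had 5.23, 5.34 and 5.17 in Th9 and 5.20, 5.21 and 5.05 in Th2, against 2.07, 1.93 and 1.59 in Treg, a difference of 3.38 ± 0.12 and 3.29 ± 0.12. Shmt2, which splits serine in mitochondria, was higher by 1.68 ± 0.23 and 2.15 ± 0.23, and Mthfd2 by 0.80 ± 0.20 (1.31 under the slide block) and 1.07 ± 0.20. The cytosolic Mthfd1 was not called in either comparison (-0.13 ± 0.29 for Th9 and 0.46 ± 0.29 for Th2). Cytosolic Shmt1 had 0.14 ± 0.35 for Th9 minus Treg, and was called for Th2 minus Treg at 1.12 ± 0.35 (adjusted p = 0.0165), a call lost without Th2 array 3 (0.90, adjusted p = 0.0667), without Treg array 3 (0.86, adjusted p = 0.0658) or under the slide block (0.74, adjusted p = 0.25). The log ratio of Mthfd1 to Mthfd1l differed by -3.51 ± 0.30 between Th9 and Treg and by -2.83 ± 0.31 between Th2 and Treg, with no overlap of the arrays. These ratios were picked after the values were seen and are given as a description.

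Of the 7 transporters, 4 were higher and 1 lower in Th9 than in Treg, and 5 were higher and none lower in Th2 than in Treg. Slc7a5, the light chain of the large neutral amino acid exchanger LAT1, had 1.5, 1.94 and 2.86 in Th9 and 3.16, 3.23 and 3.97 in Th2, against -0.07, -0.55 and -0.62 in Treg. Its partner Slc3a2 (CD98 heavy chain) had 4.82, 4.81 and 5.24 in Th9 and 5.30, 5.49 and 5.64 in Th2, against 3.41, 3.59 and 3.45 in Treg. Both chains were thus high on every Th9 and Th2 array, by 2.52 ± 0.34 and 1.47 ± 0.18 in Th9 and by 3.87 ± 0.34 and 1.99 ± 0.18 in Th2. Slc1a4 (ASCT1, a carrier of alanine, serine and cysteine) was higher by 3.06 ± 0.38 in Th9 and 3.92 ± 0.38 in Th2, and by 1.67 and 2.55 with normexp background correction.

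Its close relative Slc1a5 (ASCT2, a glutamine carrier) went the other way in Th9. It had 3.46, 3.6 and 3.97 in Th9 and 4.19, 4.11 and 4.66 in Th2, against 4.34, 4.50 and 4.34 in Treg. All Th9 arrays were below all Treg arrays (-0.71 ± 0.18, adjusted p = 0.00584), a call that the slide block ended (-0.51, adjusted p = 0.306), while the Th2 and Treg arrays overlapped (-0.07 ± 0.18, adjusted p = 0.747). The kept probe of the glutamine carrier Slc38a1 was called in neither comparison (-0.31 ± 0.13 for Th9 and 0.17 ± 0.13 for Th2), although Th9 minus Treg was called lower in several alternatives, among them quantile normalization (-0.32, adjusted p = 0.0469) and without Th9 array 3 (-0.45, adjusted p = 0.00871). Its other probes disagreed, from -0.76 to 0.04 in Th9 and from -0.48 to 0.29 in Th2. In a limma fit of all probes, 1 of them was called lower in both (-0.76 and -0.48, adjusted p = 0.0028 and 0.0326). Another was called lower in Th9 alone (-0.67, adjusted p = 0.0059). Slc38a2 (SNAT2), which amino acid starvation induces, was higher by 0.31 ± 0.12 in Th9 (adjusted p = 0.046) and 0.66 ± 0.12 in Th2, and its Th9 call was lost without any 1 of the 3 Th9 arrays or without Treg array 1 or 2 (adjusted p = 0.07 to 0.128). The mean of its probes gave 0.51 and 1.13. Slc7a11, the cystine carrier xCT, had -7.87, -7.79 and -8.36 in Treg and was not above background there. Its Th2 minus Treg call (adjusted p = 0.0472, Th2 at least 1.03-fold higher) did not hold without Th2 array 3 (adjusted p = 0.186), the 1 Th2 array well above background.

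The tRNA synthetases, which charge tRNAs with amino acids, were higher in Th9 than in Treg for 10 of 12 and in Th2 than in Treg for 11 of 12. The higher calls ranged in size from 0.58 ± 0.17 (Tars, 0.98 under the slide block) to 1.98 ± 0.14 (Cars) in Th9 and from 0.85 ± 0.23 (Lars) to 2.32 ± 0.14 (Cars) in Th2. Cars had 2.99, 3.10 and 3.32 in Th9 and 3.28, 3.51 and 3.63 in Th2, against 1.17, 1.28 and 1.02 in Treg. Eprs (1.89), Iars (1.82), Sars (1.58), Aars (1.48), Mars (1.45), Gars (1.44), Yars (1.42) and Nars (0.93) lay between in Th9 minus Treg. Lars was not called in Th9 minus Treg (0.15 ± 0.23), and its Th2 minus Treg call was lost under the slide block (adjusted p = 0.11).

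Wars, the tryptophanyl enzyme, which interferon-γ also induces, was the exception. It had 0.97, 1.09 and 1.39 in Th9 and 1.48, 1.45 and 2.20 in Th2, against 2.84, 2.92 and 3.03 in Treg. Every Treg array was above every Th9 and Th2 array. Wars was 3.43-fold lower in Th9 (-1.78 ± 0.19, adjusted p = 1.58e-05) and 2.33-fold lower in Th2 (-1.22 ± 0.19, adjusted p = 0.000243), and its second probe gave -1.42 and -1.15.

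**Figure D2:**
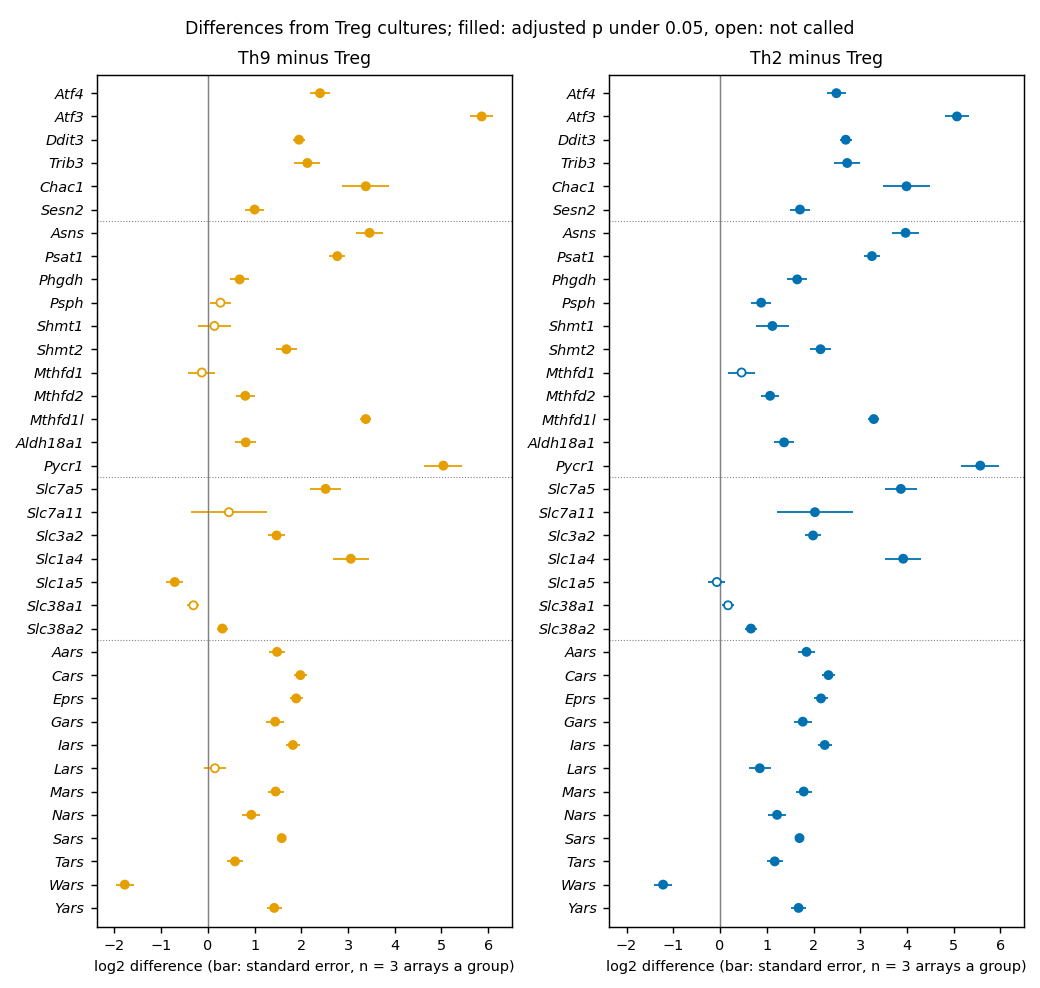
Log2 difference of each member for Th9 minus Treg (left) and Th2 minus Treg (right), with its standard error (n = 3 arrays a group); filled points passed an adjusted p of 0.05 and open points did not. Most members lie right of 0 in both panels, with Atf3 and Pycr1 farthest, and Wars lies left of 0 in both.

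Other gene groups moved with the same contrast. Of 15 cell cycle genes, 12 exceeded their Treg level in Th9 and 12 in Th2, and their summed level relative to the 75th percentile was 163 to 245 in Th9 and 150 to 262 in Th2, against 84.3 to 124 in Treg. The summed level of 10 B cell markers was 5.63 to 7.42 in Th9 and 2.96 to 5.01 in Th2, against 57.8 to 79.4 in Treg. Of 9 myeloid and dendritic cell markers, 6 were lower and 2 higher in Th9 than in Treg, and 5 lower and 2 higher in Th2, with summed levels of 1.98 to 2.94 in Th9 and 2.44 to 3.0 in Th2, against 1.52 to 2.83 in Treg. Among them Lyz2 had -6.38, -7.32 and -8.37 in Th9 and -6.92, -7.19 and -7.84 in Th2, not above background on any of these arrays, against 0.95, -0.45 and 0.75 in Treg. Adgre1 of the same list went the other way. It had 0.54, 0.61 and 1.35 in Th9 and 1.15, 1.19 and 0.97 in Th2, against -1.83, -2.16 and -2.12 in Treg. Of 10 T cell markers, 5 were lower in Th9 and 6 in Th2 than in Treg. The part of these differences in the members' low Treg levels was not tested.

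Anti-CD3 for 6 h on Th9 cells changed the members in both directions. In Th9 stimulated cells 15 members were higher and 7 lower than in Th9, where 33.2% of all genes were called higher and 30.6% lower, and the median over members was 0.29 (0.02 over all genes tested). The count of calls was thus near the background, and the result lies in which members moved. Under the slide block, whose value rests on Th9 stimulated array 3 against the 3 Th9 arrays of its slide, 9 were higher and 7 lower.

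The cytosolic one-carbon enzymes rose furthest. Shmt1, which makes glycine and one-carbon units from serine in the cytosol (chr11:60788897-60811265 in GRCm38.p6), had 3.10, 3.23 and 2.73 in Th9 stimulated cells, against -2.76, -1.83 and -1.41 in Th9. Mthfd1, the cytosolic folate enzyme with 3 activities, had 3.88, 3.82 and 3.42 in Th9 stimulated cells, against 0.26, 0.65 and 0.93 in Th9. For both genes every Th9 stimulated array was far above every Th9, Th2 and Treg array. Shmt1 was 32.5-fold higher (5.02 ± 0.35, adjusted p = 6.03e-07) and Mthfd1 8.55-fold higher (3.10 ± 0.29, adjusted p = 4.96e-06). The second probes gave 4.01 and 2.67, and the values within the shared slide were 4.73 and 2.81.

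The mitochondrial counterparts moved by smaller amounts, and 1 of them fell. Mthfd1l had 4.16, 4.24 and 4.12 in Th9 stimulated cells, against 5.23, 5.34 and 5.17 in Th9, and fell by 1.07 ± 0.12 on the log2 scale (adjusted p = 2.18e-05). Mthfd2 had 0.01 ± 0.20 (adjusted p = 0.977). Shmt2 rose by 0.75 ± 0.23 (adjusted p = 0.0144), a call lost without Th9 array 1 (0.60, adjusted p = 0.0603), without Th9 stimulated array 1 (0.66, adjusted p = 0.0518), under the slide block (0.45, adjusted p = 0.28) and with quantile normalization (0.41, adjusted p = 0.139). The log ratio of Shmt1 to Shmt2 thus differed by 4.27 ± 0.23, and that of Mthfd1 to Mthfd1l by 4.17 ± 0.24, between Th9 stimulated and Th9, again as a description of pairs picked after their values were seen.

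**Figure D3:**
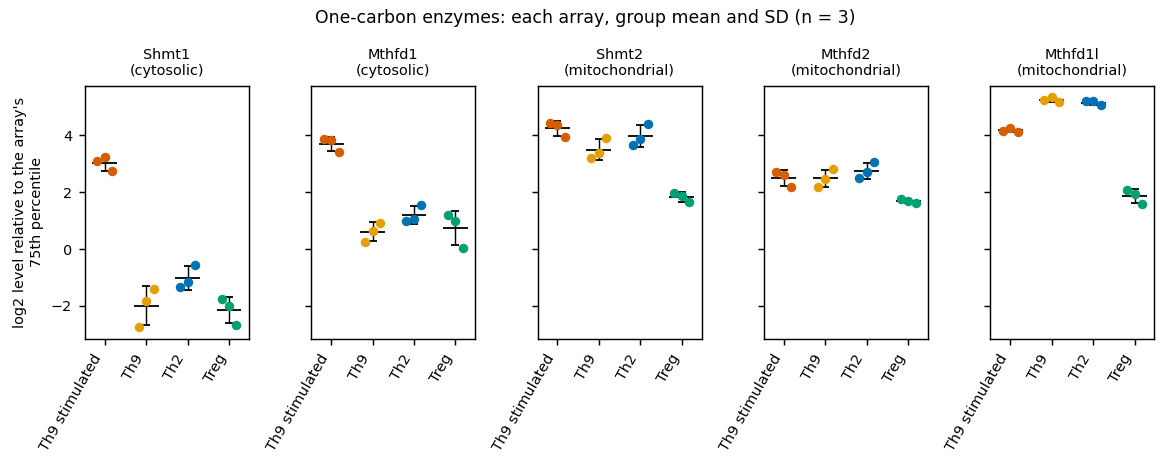
Log2 level of 5 one-carbon enzymes on each array (points), with the group mean (line) and SD (bar, n = 3), from left to right Th9 stimulated, Th9, Th2 and Treg in each panel. The 2 cytosolic enzymes are highest on the Th9 stimulated arrays, whereas the 3 mitochondrial enzymes are lowest on the Treg arrays; levels in different panels come from different probes.

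The other enzymes moved less. Psat1 rose by 1.25 ± 0.17 (5.51, 5.47 and 5.09 in Th9 stimulated cells, against 3.94, 4.04 and 4.34 in Th9) and Phgdh by 1.04 ± 0.21 (6.28, 6.41 and 6.27 in Th9 stimulated cells, against 4.82, 5.27 and 5.74 in Th9). Both groups of arrays were separate for each gene. Psph was called at 0.59 ± 0.22 (adjusted p = 0.0377), but leaving out any 1 of the 6 arrays compared, except Th9 array 3, ended that call (adjusted p = 0.0537 to 0.151), as did quantile normalization (0.31, adjusted p = 0.239). Asns (0.15 ± 0.28), Aldh18a1 (-0.35 ± 0.22) and Pycr1 (-0.75 ± 0.41, adjusted p = 0.136) were not called.

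Among the stress factors the changes were opposed. Trib3 had 1.73, 1.92 and 1.30 in Th9 stimulated cells, against 4.25, 4.52 and 4.91 in Th9, and fell by 2.91 ± 0.28 on the log2 scale (7.51-fold, adjusted p = 5.83e-06). Ddit3 had 0.35, 0.48 and 0.47 in Th9 stimulated cells, against 2.88, 2.91 and 3.34 in Th9, and fell by 2.61 ± 0.13 (6.11-fold, adjusted p = 1.05e-07). Sesn2, which is a target of p53 and FOXO as well as of ATF4, had 6.08, 6.11 and 5.51 in Th9 stimulated cells, against 3.48, 3.75 and 4.15 in Th9. Ddit3 and Trib3 on Th9 stimulated arrays were below, and Sesn2 above, all arrays of the other 3 conditions. Sesn2 rose by 2.11 ± 0.21 (4.31-fold, adjusted p = 6.95e-06). Atf4 fell by 0.70 ± 0.21 (3.61, 3.54 and 2.88 in Th9 stimulated cells, against 3.86, 4.0 and 4.28 in Th9; adjusted p = 0.0112). The fall of Atf4 was 1.16 within the shared slide, whose 1 Th9 stimulated array was array 3, the lowest. Its difference was -0.47 without that array (adjusted p = 0.0355) and -0.36 without the arrays numbered 3 of all groups (adjusted p = 0.0127), a setting chosen after seeing the data. The Atf4 call was lost in a fit of the 6 arrays compared with the array number as a block (adjusted p = 0.0713), also added after the data were seen. Atf3 (0.29 ± 0.25) and Chac1 (0.13 ± 0.50) were not called. Ddit3 and Mars lie end to end on chromosome 10 (chr10:127290793-127296291 and chr10:127296221-127311786 in GRCm38.p6), and Mars had 0.43 ± 0.17 (adjusted p = 0.052) where Ddit3 fell.

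Of the 7 transporters, 3 rose on stimulation and none fell, where 33.2% of all genes rose and 30.6% fell. Slc1a5 had 5.78, 5.38 and 5.35 in Th9 stimulated cells, against 3.46, 3.6 and 3.97 in Th9, and rose by 1.82 ± 0.18 (3.54-fold, adjusted p = 7.66e-06). Slc38a1 had 4.29, 4.17 and 3.96 in Th9 stimulated cells, against 2.55, 2.64 and 3.02 in Th9, and rose by 1.40 ± 0.13 (2.64-fold, adjusted p = 5.39e-06). In the limma fit of all probes, the other probes of Slc38a1 ranged from 0.27 (not called, adjusted p = 0.323) to 2.33. For the kept probes of both glutamine carriers the Th9 stimulated arrays were above every other array. Slc7a5 rose by 1.23 ± 0.34 (3.55, 3.47 and 2.97 in Th9 stimulated cells, against 1.5, 1.94 and 2.86 in Th9; adjusted p = 0.0083), and within the shared slide had 0.87 (adjusted p = 0.161). Slc3a2 (0.28 ± 0.18) and Slc1a4 (0.05 ± 0.38) were not called, and leaving out Th9 stimulated array 3 brought Slc3a2 past the threshold (0.46, adjusted p = 0.031). Slc7a11 was well above background on 2 of 3 Th9 stimulated arrays and on none of the Th9 arrays, so it has only a bound (at least 1.05-fold higher in Th9 stimulated cells, adjusted p = 0.121). The log ratio of Slc1a5 to Slc1a4 differed by 1.77 ± 0.34 and that of Slc38a1 to Slc38a2 by 1.38 ± 0.11 between Th9 stimulated and Th9. The probes of Slc38a2 disagreed in direction: its kept probe had 0.02 ± 0.12, while 2 others fell (-0.85 and -0.80) and 1 rose (0.41), so no direction is given for this gene.

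Of the tRNA synthetases, 5 rose and 3 fell on stimulation, where 33.2% of all genes rose and 30.6% fell. Wars had 2.87, 2.96 and 2.72 in Th9 stimulated cells, against 0.97, 1.09 and 1.39 in Th9, and rose by 1.70 ± 0.19 (adjusted p = 1.82e-05). Tars had 5.69, 5.60 and 5.24 in Th9 stimulated cells, against 3.69, 4.15 and 4.25 in Th9, and rose by 1.48 ± 0.17 (adjusted p = 1.72e-05). These gaps exceeded the spread of the arrays, and Wars on the Th9 stimulated arrays overlapped the Treg arrays. Lars (1.00 ± 0.23), Gars (0.57 ± 0.19) and Yars (0.56 ± 0.16) also rose, but all 3 calls were lost under the slide block (adjusted p = 0.0905, 0.232 and 0.223). With quantile normalization Lars had 0.65 (adjusted p = 0.0326), while Gars (0.33, adjusted p = 0.14) and Yars (0.26, adjusted p = 0.162) were not called. The call of Gars was also lost without Th9 array 1 or 2 or Th9 stimulated array 1 (adjusted p = 0.0804, 0.0579 and 0.072). Sars (-0.93 ± 0.10), Cars (-0.58 ± 0.14) and Eprs (-0.46 ± 0.14, -0.70 with quantile normalization) fell and kept their calls with the slide as a block. The call of Eprs was lost in a fit of the 6 arrays compared with the array number as a block (adjusted p = 0.0603). Aars (-0.04 ± 0.18), Iars (0.26 ± 0.15), Mars and Nars (0.28 ± 0.19) were not called; leaving out Th9 stimulated array 3 brought Iars (0.41, adjusted p = 0.0235) and leaving out Th9 array 3 brought Mars (0.60, adjusted p = 0.00936) past the threshold.

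**Figure D4:**
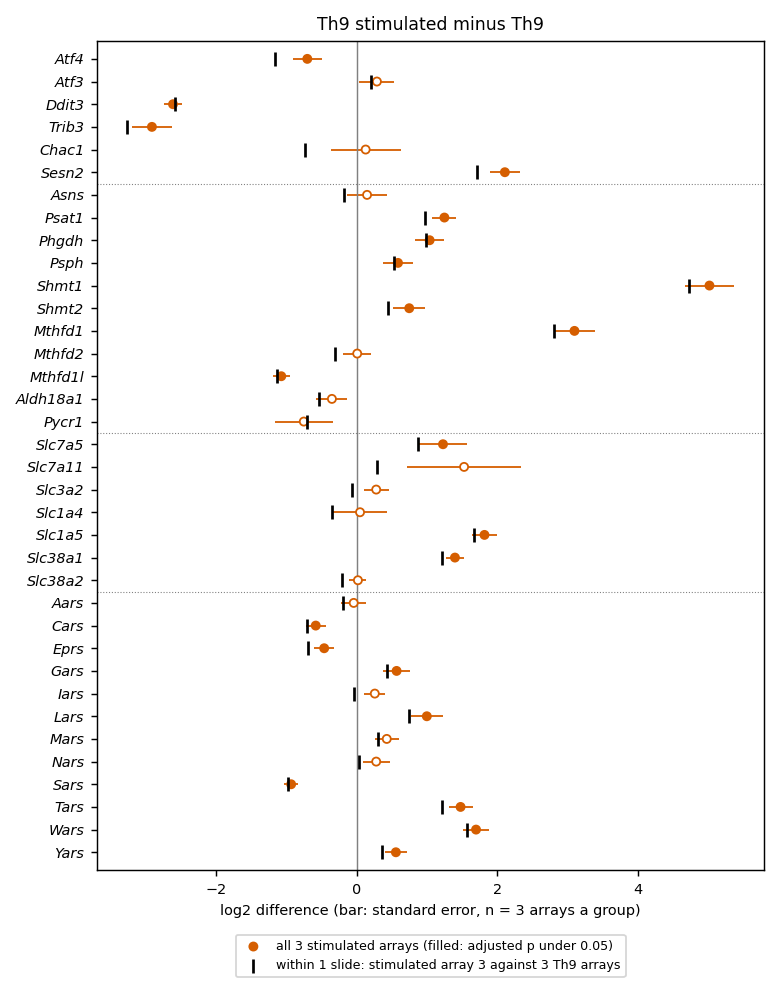
Log2 difference of each member for Th9 stimulated minus Th9 with its standard error (n = 3 arrays a group); filled points passed an adjusted p of 0.05, open points did not, and black ticks give the value within the 1 slide that held both conditions. Shmt1 and Mthfd1 lie farthest right, Trib3 and Ddit3 farthest left, and the ticks keep that order.

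Of the 15 cell cycle genes, 6 were higher and 5 lower in Th9 stimulated cells than in Th9, and the summed level was 277 to 321 in Th9 stimulated cells, against 163 to 245 in Th9. The summed level of the B cell markers was 0.867 to 2.84 in Th9 stimulated cells, against 5.63 to 7.42 in Th9. Of 6 markers of CD8 T cells and NK cells, 5 were lower in Th9 stimulated cells than in Th9, with summed levels of 2.96 to 17.1 in Th9 stimulated cells, against 23.5 to 30.8 in Th9. Th9 stimulated array 3, on which each within-slide value rests, stood apart in this list, with Cd8a at -2.23, compared with 2.47 and 2.29 on Th9 stimulated arrays 1 and 2 (2.71, 2.42 and 2.16 in Th9). The part of these differences in the members' changes was not tested.

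Th9 and Th2 cultures, which differ in TGF-β, showed small differences. No member was higher and 7 were lower in Th9 than in Th2 (limma, adjusted p under 0.05), where 7.76% of all genes were called higher and 9.26% lower. The 7 were Slc7a5 (-1.35 ± 0.34, adjusted p = 0.0219), Phgdh (-0.97 ± 0.21, adjusted p = 0.0125), Ddit3 (-0.74 ± 0.13, adjusted p = 0.00378), Sesn2 (-0.71 ± 0.21, adjusted p = 0.0424), Slc1a5 (-0.64 ± 0.18, adjusted p = 0.0377), Tars (-0.59 ± 0.17, adjusted p = 0.036) and Slc38a1 (-0.49 ± 0.13, adjusted p = 0.0327). Slc7a5 was the farthest apart of these, with 1.5, 1.94 and 2.86 in Th9, against 3.16, 3.23 and 3.97 in Th2. The second probes of Sesn2 (-0.44, adjusted p = 0.0845) and Tars (-0.42, adjusted p = 0.118) were not called. Neither was any other probe of Slc38a1 (-0.72 to -0.09, adjusted p = 0.0586 to 0.821). With the mean of the probes of a gene, the calls of Sesn2, Tars and Slc38a1 were lost (adjusted p = 0.0524, 0.0608 and 0.197). The tilt was wider than the calls: 34 of 36 members had a negative difference, with a median of -0.52 (-0.03 over all genes tested), and in 17 of 36 all Th9 arrays were below all Th2 arrays, as in 21.3% of all genes. Atf4 itself differed by -0.09 ± 0.21, and Atf3 by 0.79 ± 0.25 (adjusted p = 0.0573). Markers of other cell types differed as well: the summed level was 23.5 to 30.8 in Th9, against 15.2 to 19.6 in Th2, for 6 CD8 T cell and NK cell markers (1 called higher), and 5.63 to 7.42 in Th9, against 2.96 to 5.01 in Th2, for 10 B cell markers (3 called higher). Their part in the members' differences was not tested.

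The array numbers mattered here. Deviations from the group mean of same-numbered Th9 and Th2 arrays correlated at 0.20, 0.18 and 0.41 over all genes, and array 3 had the highest median member level in both groups (0.50 above the mean of all arrays in Th9 and 0.84 in Th2). Within same-numbered pairs, 32 of 36 members were lower in Th9 in all 3 pairs, against 33.3% of all genes. Shmt2, for instance, had pair differences of -0.48, -0.48 and -0.47, and Slc7a5 had -1.66, -1.29 and -1.11. Atf3 was higher in Th9 in all 3 pairs (0.77, 0.81 and 0.78), as was Mthfd1l (0.03, 0.13 and 0.12).

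Counts of calls depended on how the pairs were treated. With the number as a block in the fit of all 12 arrays, 5 members were called lower, Sesn2 (adjusted p = 0.0591) and Tars (adjusted p = 0.0509) being lost. In a fit of the 6 Th9 and Th2 arrays alone with the number as a block, added after the data were seen, 23 members were lower and Atf3 was higher (0.79, adjusted p = 0.0108), with 10.7% of all genes called lower. The 23 comprised 6 of 7 transporters (among them Slc7a11, which was well above background on none of these Th9 arrays and on 1 of 3 Th2 arrays), 9 of 11 enzymes, 4 of 6 stress factors and 4 of 12 tRNA synthetases. No slide held both conditions, and the slide block, which links them only through Treg and Th9 stimulated arrays, left no member called and a median of -0.04. Slide and culture condition cannot be told apart in this comparison beyond that fit, and leaving out single arrays moved the count of lower members between 2 (without Th9 array 1 or 2 or Th2 array 3) and 14 (without Th9 array 3), with 3 and 4 without Th2 array 1 and 2.

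**Figure D5:**
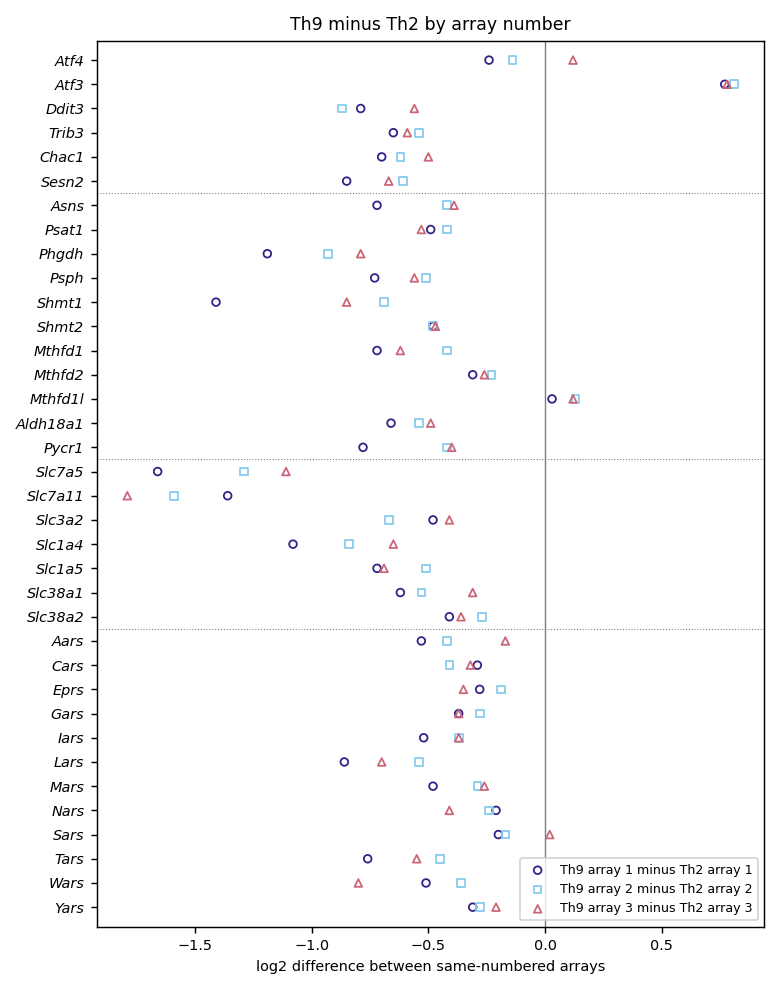
Log2 difference between the Th9 and the Th2 array of the same number for each member, with 1 symbol for each of the 3 pairs. Nearly all symbols lie left of 0, with Slc7a5 and Slc7a11 (near background) farthest, and Atf3 lies right of 0 in all 3 pairs.

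Members with and without the promoter motif are given side by side as a description, since the difference between these sets was not tested. In Th9 minus Treg, 11 of 12 members with the motif were higher (median 1.97), as were 14 of 17 members with a window but without it (median 1.45). In Th2 minus Treg, 12 of 12 with the motif were higher (median 2.48), as were 16 of 17 without it (median 1.71). The 12 include Slc7a11, which lay near background and whose call was lost without Th2 array 3 (adjusted p = 0.186). In Th9 stimulated minus Th9, 3 of the 12 rose and 1 fell, and 7 of the 17 rose and 5 fell. Of all genes tested that had a window, 320 had the motif and 10977 did not. In Th9 minus Treg, 28.1% of the 320 and 31.5% of the 10977 were higher. In Th9 stimulated minus Th9, 29.4% of the 320 rose and 33.1% fell, and 34.9% of the 10977 rose and 32.3% fell.

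Genes of the same pathways that are not members were read for comparison, against a background of 28.8% of all genes higher and 35.3% lower for Th9 minus Treg, and 33.2% higher and 30.6% lower for Th9 stimulated minus Th9. Of 20 other genes of the integrated stress response, 15 were higher and 3 lower in Th9 than in Treg, led by Vldlr (6.81), Nupr1 (6.25), Stc2 (5.06) and Atf5 (3.63), and in Th9 stimulated cells 6 were higher and 11 lower than in Th9, led by Vldlr (-4.91), Stc2 (-2.00), Eif2s1 (1.84) and Eif2ak2 (1.68). Of 25 other amino acid and folate enzymes, 10 were higher and 9 lower in Th9 than in Treg, with Aldh1l2 (a mitochondrial folate enzyme, 5.69), Cth (4.50), Bcat1 (3.26) and Gpt2 (3.15) farthest. On stimulation 15 of the 25 rose and 6 fell, and Gcsh (4.24) and Gldc (3.65), both of the mitochondrial glycine cleavage system, Aldh1l2 (-3.27) and Mat2a (3.24) led. Of 8 other cytosolic tRNA synthetases, 6 were higher and none lower in Th9 than in Treg (Dars 2.03). The 17 mitochondrial tRNA synthetases were split, with 5 higher and 5 lower in Th9 than in Treg and a median of -0.08. Of 19 other amino acid transporters tested, 6 were higher and 9 lower in Th9 than in Treg, with Slc7a3 (3.94) and Slc6a9 (2.95) highest and Slc43a1 (-2.50) lowest. The counts of higher genes in the last 2 lists lie near the background.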

How the data were processed

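Cy3-labelled RNA of 12 samples was hybridised to 1-colour Agilent mouse arrays and scanned; per the file headers, signals were extracted by Agilent's Feature Extraction software, version 10.5.1.1. The scanner files hold intensity values (background-subtracted processed signal) as the authors deposited them. The deposited log2 table of the same arrays (column medians 5.171 to 5.174, r with the scanner values at least 0.9996) served as an alternative. Its centring is not given in the sources used here.

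From the intensities, log2 of the processed signal minus the array's 75th percentile was computed. Control spots were left out, spots of 1 probe were averaged, and probes with an outlier flag on any array were left out (no member's). Probes had to be well above background on at least 3 arrays, and each gene kept the probe with the highest mean. limma 3.58.1 (R 4.3.3) fitted 1 mean per group over all 12 arrays, with Benjamini-Hochberg adjustment over 17912 genes in each comparison and a threshold of 0.05. The number of arrays limits the precision. The fit was tested on simulated data with independent noise and no effect of slide or array number. That test therefore does not bear on slides or pairs. Alternatives were the normalization, background correction, filter, choice of probe, slide and replicate blocks, and leaving out arrays. Same-numbered arrays were taken as paired where all correlations exceeded 0.1, which only Th9 and Th2 met (different numbers -0.30 to 0.12). Th9 stimulated and Th9 fell just short, at 0.21, 0.11 and 0.09 (different numbers -0.18 to 0.06). Th9 and Treg also fell short, at 0.05, 0.14 and 0.12 (different numbers -0.11 to 0.02). In both, same-numbered arrays still correlated more than differently numbered ones. Such a contrast is partly built in, because deviations from a group's mean cancel out within the group. Th2 and Treg had 0.02, 0.02 and -0.01 (different numbers -0.07 to 0.04). Members and lists were chosen with earlier results of these data known. All members are named, and of each other list the called genes with the largest differences.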

Additional observations from a re-analysis of the deposited data

How the results depend on the processing

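For Th9 minus Treg and Th2 minus Treg, 26 of 30 and 29 of 33 called members were called in every alternative run that tested them. Pycr1 is among them and was not tested under the filter for all 12 arrays. For Th9 stimulated minus Th9 the count was 14 of 22. For Th9 minus Th2 none of 7 was called in every run, and all 7 kept their sign. The count of members lower in Th9 than in Th2 (7) became 4 with quantile normalization and with the deposited table, 17 with normexp background correction, 3 with no filter, 0 with the slide as a fixed block, 2 with only the 6 arrays compared, 13 with trend and robust estimation, 19 without the 4 arrays numbered 3 and 23 with the replicate block in the 6 arrays compared, and ranged from 2 to 14 when 1 array was left out. The count higher (0) became 1, Atf3, with quantile normalization, the 75th percentile over detected probes, normexp, the deposited table, the filter for all 12 arrays, trend and robust estimation, without the arrays numbered 3 and with the replicate block in the 6 arrays, and ranged from 0 to 1 when 1 array was left out. The count lower in Th9 than in Treg (2) became 1 with the slide block and 4 without the arrays numbered 3, and ranged from 2 to 3 when 1 array was left out. The count higher in Th9 stimulated than in Th9 (15) became 9 with the slide block, 11 with quantile normalization and the deposited table, 10 with the replicate block in the 6 arrays and 22 without the arrays numbered 3, and ranged from 12 to 17 when 1 array was left out. The cause of these shifts was not tested. The replicate block in all 12 arrays gave 5 lower for Th9 minus Th2, 27 higher and 2 lower for Th9 minus Treg, 15 and 7 for Th9 stimulated minus Th9, and 31 and 1 for Th2 minus Treg; same-numbered arrays of those 3 comparisons correlated at -0.01 to 0.21. Slc38a2 changed sign for Th9 stimulated minus Th9 with quantile normalization and the deposited table (-0.30, adjusted p = 0.0446 and 0.0447). The 75th percentile over detected probes moved the median of all genes for Th9 stimulated minus Th9 by -0.16, so that 43.6% of its calls were higher, against 52% in the fit reported; the slide block gave 59.3% against 45.6% for Th9 minus Th2. Slc7a11 lay too near background to be read.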
